A study of Mus musculus with 9 samples.

Results

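The 32 genes described here encode enzymes of cholesterol synthesis, the proteins that sense sterols and switch the pathway on and off, and proteins that take up, carry, export, store or break down cholesterol. They were chosen by gene symbol. The rule held no measured value, but earlier results of these data were known when the genes were chosen. All 32 were found among the 17187 gene symbols of the deposited table. They were measured as poly(A) RNA in 9 libraries of mouse medullary brainstem, taken as punches that held the raphe nuclei, the cell groups where most serotonergic neurons lie. All mice were wild type (labelled wt) and had received a stereotactic injection of an adeno-associated virus (AAV2) into the cortex, 3 weeks before the tissue was taken. In the HIL6 group (5 libraries) the virus was labelled AAV2-HIL6-GFP and carried hyper-interleukin-6, an engineered fusion of the cytokine interleukin-6 and its soluble receptor, together with green fluorescent protein. In the GFP group (4 libraries) it was labelled AAV2-GFP and carried green fluorescent protein alone. The virus went into the cortex and the RNA came from the brainstem, so the libraries hold tissue at a distance from the injection. The sources used here do not give strain, age, sex or the promoter in the virus. The labels also give a batch. HIL6 libraries 4 and 5 and GFP library 4 were batch 2, and HIL6 libraries 1 to 3 and GFP libraries 1 to 3 were batch 1. Nothing in the labels says that each library is a separate animal, so the p-values take in the spread from library to library, which may be technical.

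The values are FPKM, fragments scaled to transcript length and to the depth of the library, which puts genes of different length on one scale. Depth, read from the steps between low values, ran from 31.94 to 46.38 in units of 1e6 scaled fragments. Every one of the 32 genes passed the filter on low values (a mean of 0.5 FPKM or more), as did 13958 genes in all. At the depth of the shallowest library, GFP library 3, the members' mean levels over all libraries correspond to about 203 fragments (Nr1h3) to 61889 fragments (Apoe). That is a counting error of 7.02% to 0.4%, given the longest annotated transcript of each gene. A pair of libraries was low in Tph2, the enzyme that defines serotonergic neurons, at 11.9 FPKM in HIL6 library 1 and 21.7 FPKM in GFP library 2, where the other 7 lay between 29.8 and 49.98 FPKM. Another pair was highest in pituitary transcripts, with a summed level of Gh, Prl, Pomc and Cga of 31.8 FPKM in HIL6 library 4 and 78.7 FPKM in GFP library 1. The pair low in Tph2 held some too, at 4.75 FPKM in HIL6 library 1 and 7.39 FPKM in GFP library 2, and the other 5 libraries lay between 0.183 and 0.866 FPKM. Markers of oligodendrocytes, astrocytes, microglia and neurons were all present, and Tph2 itself was found in every library.

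Brain cholesterol is made inside the brain, because plasma lipoproteins do not cross the blood-brain barrier, and most of it lies in the myelin that oligodendrocytes wrap around axons. Synthesis runs from acetyl-CoA through mevalonate and isoprenoid units to squalene, which is closed into lanosterol and then trimmed to cholesterol. When sterols are scarce in the endoplasmic reticulum, SCAP escorts the transcription factor SREBP-2 (Srebf2) to the Golgi, where it is cut free to switch on nearly every enzyme of the pathway. When sterols are plentiful, INSIG proteins hold SCAP back. Surplus sterol activates the liver X receptors (Nr1h2 and Nr1h3), which raise the exporters ABCA1 and ABCG1 and the carrier APOE, while neurons turn cholesterol into 24S-hydroxycholesterol with CYP46A1 so that it can leave the brain.

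The RefSeq promoter table (build GRCm38.p6, 250 bases before to 50 after each start) held 27 of the 32 genes with 38 promoters; Fdps, Fdft1, Sqle, Stard4 and Abcg1 are not among them. The promoters of 5 genes are printed, all on the strand of the gene, because the measurements turn on their genes. Insig1 and Acat2 are the genes whose HIL6 and GFP libraries did not overlap, and Hmgcs1, Cyp51 and Mvk differed between batches in opposite directions. Capitals mark matches, on either strand, to a sterol regulatory element (TCACNCCAC), a CCAAT box (CCAAT, read as ATTGG on the other strand) or a GC box (GGGCGG, read as CCGCCC on the other strand), and no match in these promoters overlapped another. The windows are chr5:28071162-28071461 on the plus strand for Insig1, chr17:12960676-12960975 on the minus strand for Acat2, chr13:119690101-119690400 on the plus strand for Hmgcs1, chr5:4104648-4104947 on the minus strand for Cyp51 and chr5:114444019-114444318 on the plus strand for Mvk.
Insig1: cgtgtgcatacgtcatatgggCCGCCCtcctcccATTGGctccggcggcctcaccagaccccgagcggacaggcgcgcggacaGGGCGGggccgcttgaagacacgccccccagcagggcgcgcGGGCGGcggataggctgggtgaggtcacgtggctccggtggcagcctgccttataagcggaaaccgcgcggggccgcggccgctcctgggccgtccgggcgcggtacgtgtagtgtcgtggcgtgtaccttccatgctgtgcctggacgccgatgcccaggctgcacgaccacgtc
Acat2: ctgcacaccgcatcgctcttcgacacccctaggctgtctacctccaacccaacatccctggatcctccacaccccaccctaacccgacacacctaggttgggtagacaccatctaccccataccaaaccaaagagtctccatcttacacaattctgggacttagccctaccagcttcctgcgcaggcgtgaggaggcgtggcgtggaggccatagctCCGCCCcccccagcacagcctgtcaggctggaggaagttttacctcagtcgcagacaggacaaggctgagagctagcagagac
Hmgcs1: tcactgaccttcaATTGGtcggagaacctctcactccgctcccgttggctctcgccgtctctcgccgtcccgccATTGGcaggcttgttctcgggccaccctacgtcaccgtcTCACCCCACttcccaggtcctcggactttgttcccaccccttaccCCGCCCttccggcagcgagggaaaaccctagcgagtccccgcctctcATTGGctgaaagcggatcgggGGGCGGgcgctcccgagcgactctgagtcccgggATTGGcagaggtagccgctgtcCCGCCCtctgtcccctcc
Cyp51: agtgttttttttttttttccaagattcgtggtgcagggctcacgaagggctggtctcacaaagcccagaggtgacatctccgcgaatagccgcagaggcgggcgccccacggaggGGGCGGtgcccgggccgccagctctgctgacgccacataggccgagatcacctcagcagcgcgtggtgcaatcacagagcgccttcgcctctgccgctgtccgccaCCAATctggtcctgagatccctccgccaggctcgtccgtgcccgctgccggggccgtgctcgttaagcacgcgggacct
Mvk: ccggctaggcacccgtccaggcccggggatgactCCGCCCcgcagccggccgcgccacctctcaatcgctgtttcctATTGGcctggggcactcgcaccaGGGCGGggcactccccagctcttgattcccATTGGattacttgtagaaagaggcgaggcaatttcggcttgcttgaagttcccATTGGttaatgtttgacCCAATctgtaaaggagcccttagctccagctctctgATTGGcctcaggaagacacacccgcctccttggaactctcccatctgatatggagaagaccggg
Hmgcs1 was the one member with an exact match to TCACNCCAC in this window, TCACCCCAC, which began 137 bases before the start. That is 1 of 27 genes, against 1.436% of all 27025 genes in the table. A CCAAT box, where the factor NF-Y can bind, stood in the promoters of 20 of 27 members, or 74.1%, against 41.058% of all genes. A GC box, where SP1 can bind, stood in 23 of 27, or 85.2%, against 38.202% of all genes. A gene counted here if any of its promoters matched, and all genes means those of the promoter table, with no filter on level. Counted by promoter, the gaps were smaller. The CCAAT box stood in 55.3% of the 38 member promoters, against 37.408% of all 32851 promoters. The GC box stood in 71.1%, against 35.658%. The fixed letter pattern used for a liver X receptor element of the DR4 type matched in 0 of 27 members and in 0.015% of all genes. Elements that differ from that pattern in any letter were not counted. The pattern was so rare among all genes that 0 matches cannot show that Abca1, Srebf1 or other members lack such an element. All these counts are matches of letters in short windows and were not tested.

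Levels differed widely along the pathway. Apoe, the main lipid carrier of the brain, had the highest level of the 32, a mean of 1376 FPKM over the 9 libraries. Hmgcs1, which joins acetoacetyl-CoA and acetyl-CoA, averaged 86.2 FPKM, and Msmo1, which removes methyl groups from lanosterol products, averaged 84.8 FPKM. Insig1 averaged 71.3 FPKM, Fdps (the maker of farnesyl pyrophosphate) 69.9 FPKM and Sc5d (a late desaturase) 50.9 FPKM. The isomerase gene Idi1, at 3.78 FPKM, was the lowest of the synthesis enzymes, and its paralog Idi2 was near 0, at 0.0151 to 0.1002 FPKM. Among the other members Abca1 averaged 3.04 FPKM and Nr1h3 averaged 3.20 FPKM. The coefficient of variation over all 9 libraries ran from 4.58% for Acat2 to 24.7% for Abca1, with 24.2% for Idi1 and 21.9% for Soat1, so Hmgcs1 and Msmo1, or Insig1 and Fdps, do not differ in level beyond their spread. Some levels carry doubt from shared or overlapping sequence, since no source used here gives the strand setting of the quantification. On the same strand, Tm7sf2 overlaps Vps51, Nr1h3 overlaps Gm13783, Fdps overlaps Gm43738 and Srebf2 overlaps Gm49502. Cyp51, Fdft1 and Srebf1 overlap Akap9, Ctsb and Rai1 on the opposite strand, and some other members overlap annotated genes too. Acat2 has a paralog, Acat3, which was listed at 0.736 to 1.33 FPKM. The plot of levels by gene shows all 9 values of each member.

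**Figure D1:**
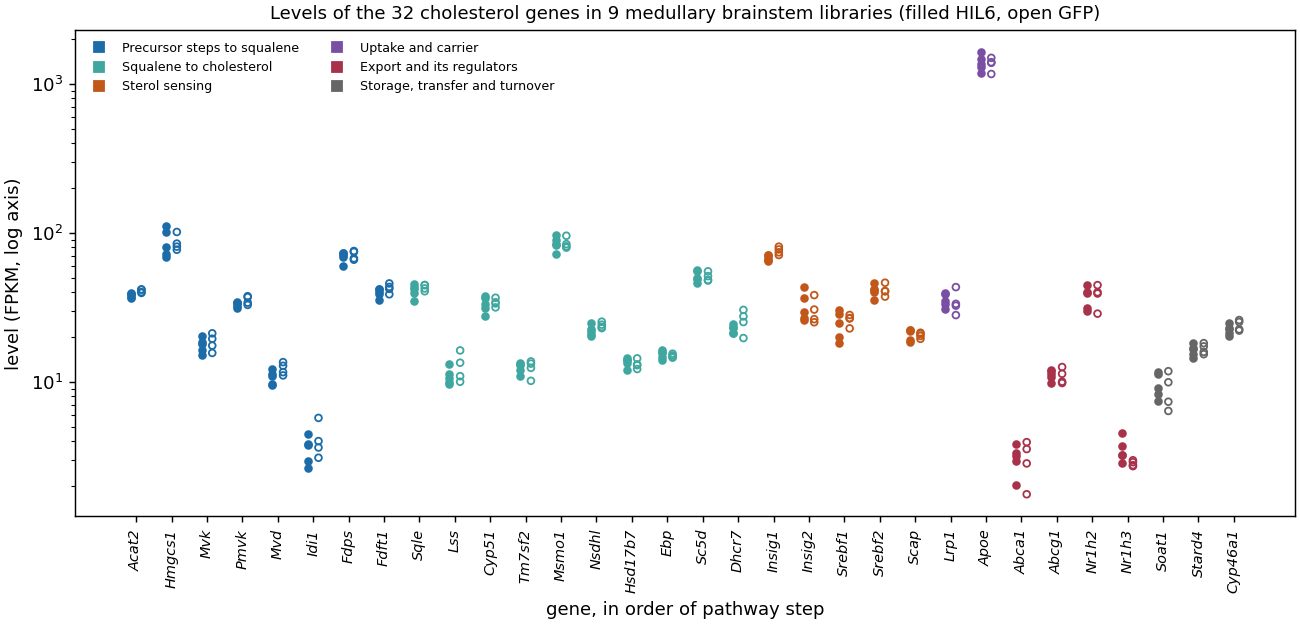
Level of each of the 32 cholesterol genes (FPKM, log axis) in the 5 HIL6 libraries (filled points) and the 4 GFP libraries (open points), ordered by pathway step and coloured by step. Apoe stands alone near 1376 FPKM, and Idi1, Abca1 and Nr1h3 lie between 1.75 and 5.71 FPKM in every library.

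No cholesterol gene passed the test between HIL6 and GFP brainstem. In limma on log2(FPKM + 0.5) with batch as a term and Benjamini-Hochberg adjustment over 13958 genes, 0 of 32 members had an adjusted p under 0.05, and each had an adjusted p of 0.999. The same test called 0 of all genes (0%). At an unadjusted p under 0.05 it held 1 member (3.12%), Insig1, and 543 of all genes (3.89%), so the members' share was near that of all genes. All HIL6 libraries lay below all GFP libraries for 2 members (6.25%), Insig1 and Acat2, against 0.229% of all genes, and the reverse held for 0 members, against 0.53% of all genes. The count of called genes over the whole table was 2 without HIL6 library 2 and 9 with a weight for each library, and no member was among them.

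The log2 fold changes (HIL6 over GFP) were small. Of the 18 synthesis genes 15 had a log2 fold change below 0, with a median of -0.078, where 51.1% of all genes lay below 0 with a median of -0.0026. All 8 enzymes up to squalene were below 0, with a median of -0.085, as were 7 of the 10 enzymes from squalene on, with a median of -0.058. Of the 5 sterol-sensing genes 2 were below 0, with a median of 0.015, and of the 9 genes of uptake, export, storage and turnover 3 were below 0, with a median of 0.036. In batch 1 alone, 16 of the 18 synthesis genes were below 0, with a median of -0.109. The counts moved with single libraries. Without HIL6 library 1, 12 of 18 synthesis genes were below 0 and the median was -0.044; without both libraries low in Tph2 the values were 12 of 18 and -0.036. Without both libraries highest in pituitary transcripts they were 16 of 18 and -0.073. The pair low in Tph2 held the HIL6 library with the lowest mean deviation of the synthesis genes from their 9-library means, at -0.11. It also held the GFP library with the highest, at 0.096. Leaving that pair out thus draws the mean difference of the synthesis genes toward 0, whatever its Tph2 level. The medians of the other groups changed sign in some of these sets, with -0.018 to 0.040 for the sensing genes and -0.024 to 0.060 for uptake, export and turnover when 1 library was left out at a time. Genes of one pathway are not independent of each other, so these counts are a description.

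**Figure D2:**
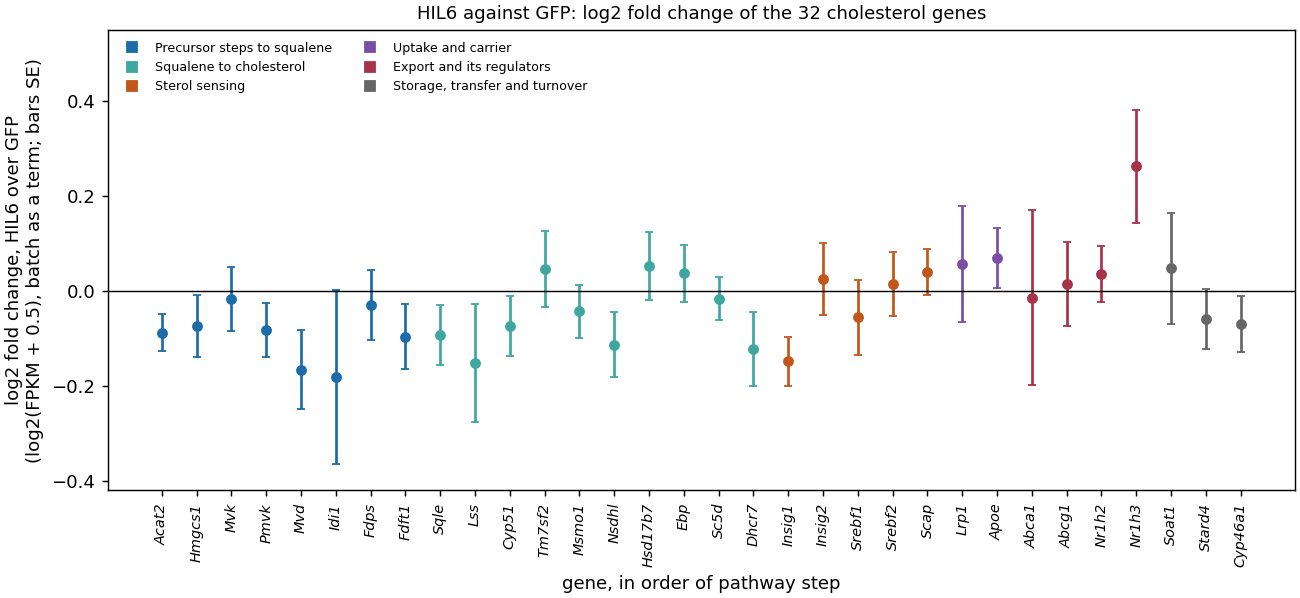
Log2 fold change of each cholesterol gene, HIL6 over GFP, on the log2(FPKM + 0.5) scale with batch as a term; bars are standard errors and genes stand in order of pathway step. The 8 genes up to squalene all lie below 0, between -0.18 and -0.017, and the point farthest above 0 is Nr1h3 at 0.26.

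Among the enzymes up to squalene, Acat2, the cytosolic thiolase that makes acetoacetyl-CoA (chr17:12942890-12960747, minus strand), separated the groups. Its level was 39.1, 38.5, 38.8, 36.8 and 36.5 FPKM in HIL6 libraries 1 to 5, against 41.5, 41.6, 40.0 and 39.4 FPKM in GFP libraries 1 to 4. The highest HIL6 library (39.1 FPKM) lay just under the lowest GFP library (39.4 FPKM), so the groups did not overlap but nearly touched. Its log2 fold change was -0.087 ± 0.040 (SE, unadjusted p = 0.0535), and it was -0.079 in batch 1 alone and -0.11 between the batch 2 libraries. Mvd, which makes isopentenyl pyrophosphate, was at 9.66, 12.2, 11.3, 10.9 and 9.57 FPKM in HIL6 libraries, against 11.6, 13.5, 12.8 and 11.02 FPKM in GFP libraries. HIL6 libraries 2 and 3 lay within the GFP range and the other 3 under it. The log2 fold change of Mvd was -0.17 ± 0.083 (SE, unadjusted p = 0.0741). It was -0.10 without HIL6 library 1 and -0.075 without both libraries low in Tph2, where that of Acat2 was -0.092 and -0.087.

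Hmgcs1 split by batch. It was at 69.0, 71.5, 80.1, 111 and 101 FPKM in HIL6 libraries, against 80.7, 76.9, 84.6 and 101 FPKM in GFP libraries. The 3 batch 2 libraries were the highest of the 9, and within batch 1 the groups overlapped. The log2 fold change was -0.073 ± 0.065 (SE, unadjusted p = 0.287), with -0.14 in batch 1 alone and 0.066 between the batch 2 libraries. It was -0.035 without HIL6 library 1 and -0.042 without GFP library 3. The mevalonate kinases came next. Pmvk, phosphomevalonate kinase, was at 31.4, 34.4, 33.9, 32.3 and 33.9 FPKM in HIL6 libraries, against 37.5, 37.0, 32.8 and 33.9 FPKM in GFP libraries. GFP libraries 1 and 2 lay above every HIL6 library and the other 2 among them. For Fdft1, squalene synthase, the HIL6 libraries held 35.5, 42.2, 40.04, 42.01 and 39.03 FPKM, against 45.7, 43.3, 38.6 and 41.98 FPKM in GFP libraries. GFP libraries 1 and 2 were again the highest and HIL6 library 1 the lowest. The log2 fold changes were -0.082 ± 0.057 for Pmvk and -0.096 ± 0.069 for Fdft1 (SE, unadjusted p = 0.18 and 0.194). Without both libraries low in Tph2 they were -0.037 for Pmvk and -0.040 for Fdft1, and without HIL6 library 1 alone -0.053 and -0.048. Without GFP library 1 that of Fdft1 was -0.059. Mvk spanned 15.1 to 20.3 FPKM in HIL6 and 15.6 to 21.1 FPKM in GFP libraries, and Idi1 spanned 2.63 to 4.43 FPKM in HIL6 and 3.09 to 5.71 FPKM in GFP libraries. Fdps spanned 59.6 to 73.6 FPKM in HIL6 and 65.9 to 75.4 FPKM in GFP libraries. These 3 genes overlapped between the groups, with unadjusted p from 0.348 to 0.812.

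Of the enzymes from squalene on, none separated the groups. Sqle, the squalene epoxidase that limits the rate of this branch, was at 35.1, 41.8, 39.5, 45.6 and 43.1 FPKM in HIL6 libraries, against 44.5, 42.3, 40.5 and 44.6 FPKM in GFP libraries. Both the lowest library, HIL6 library 1, and the highest, HIL6 library 4, carried HIL6. Its log2 fold change was -0.092 ± 0.062 (SE, unadjusted p = 0.17), and -0.042 without HIL6 library 1. Lss, which closes the sterol ring, was at 13.05, 9.68, 11.3, 9.93 and 10.6 FPKM in HIL6 libraries, against 13.4, 10.9, 16.2 and 9.99 FPKM in GFP libraries. GFP library 3 stood highest and the other libraries interleaved, with a log2 fold change of -0.15 ± 0.12 (SE, unadjusted p = 0.251). That value was -0.051 without GFP library 3, -0.071 without HIL6 library 2, -0.23 without GFP library 2, -0.24 without GFP library 4 and -0.27 without both libraries low in Tph2. Cyp51, the lanosterol demethylase, was at 27.5, 33.1, 31.2, 36.4 and 37.9 FPKM in HIL6 libraries, against 34.1, 31.5, 33.6 and 36.6 FPKM in GFP libraries. HIL6 library 1 was the lowest and the 3 batch 2 libraries were the highest, with a log2 fold change of -0.073 ± 0.064 (SE, unadjusted p = 0.277), which was -0.019 without HIL6 library 1 and -0.11 without GFP library 4.

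Nsdhl, which takes part in removing the methyl groups at C4, was at 20.9, 24.7, 20.1, 22.7 and 22.0 FPKM in HIL6 libraries, against 24.1, 25.3, 23.3 and 22.9 FPKM in GFP libraries. HIL6 library 2 lay inside the GFP range and the other 4 under it, with a log2 fold change of -0.11 ± 0.068 (SE, unadjusted p = 0.129), which was -0.071 without HIL6 library 3 and -0.066 without both libraries low in Tph2. Dhcr7, which makes cholesterol from 7-dehydrocholesterol, was at 24.3, 23.3, 23.0, 21.1 and 21.4 FPKM in HIL6 libraries, against 27.5, 30.3, 25.1 and 19.6 FPKM in GFP libraries. Within batch 1 all 3 HIL6 libraries lay below all 3 GFP libraries, and within batch 2 both HIL6 libraries lay above the GFP library. The log2 fold change of Dhcr7 was -0.12 ± 0.077 over all libraries (SE, unadjusted p = 0.148), -0.22 ± 0.085 in batch 1 alone (SE, unadjusted p = 0.0295) and 0.11 between the batch 2 libraries. It was -0.061 without GFP library 2 and -0.063 without both libraries low in Tph2. The remaining enzymes were close to 0. Msmo1 and Sc5d had log2 fold changes of -0.043 and -0.016, while Tm7sf2 (a sterol reductase), Hsd17b7 (a ketoreductase) and Ebp (a sterol isomerase) had 0.047, 0.053 and 0.037, all with unadjusted p of 0.463 or more.

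Insig1, which holds SCAP and SREBP in the endoplasmic reticulum and is itself an SREBP target (chr5:28071363-28078662, plus strand), had the smallest unadjusted p of the 32 genes. It was at 65.3, 70.7, 68.0, 70.5 and 64.5 FPKM in HIL6 libraries, against 77.2, 80.6, 73.9 and 70.9 FPKM in GFP libraries. The highest HIL6 library (70.7 FPKM) lay just under GFP library 4 (70.9 FPKM), the only GFP library of batch 2, and well under the GFP libraries of batch 1. Insig1 averaged 67.8 ± 2.88 FPKM in HIL6 and 75.7 ± 4.21 FPKM in GFP libraries (SD, n = 5 and 4), with a log2 fold change of -0.15 ± 0.051 (SE, unadjusted p = 0.0163, limma adjusted p = 0.999) and an unadjusted 95% interval of -0.26 to -0.034. That interval makes no allowance for picking the gene with the smallest p of the 32, so it does not establish a decrease. The log2 fold change was -0.18 ± 0.066 in batch 1 alone (SE, unadjusted p = 0.0244) and -0.071 between the batch 2 libraries. Without both libraries low in Tph2 it was -0.10 (unadjusted p = 0.0708), and without both libraries highest in pituitary transcripts -0.17 (unadjusted p = 0.0238).

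The other sensing genes had log2 fold changes nearer 0. The paralog Insig2 spanned 26.1 to 43.3 FPKM in HIL6 and 25.1 to 38.1 FPKM in GFP libraries, with a log2 fold change of 0.026 ± 0.076 (SE). Srebf1, whose SREBP-1 products act mostly on fatty acid genes, was at 30.4, 24.6, 28.6, 18.1 and 19.97 FPKM in HIL6 libraries, against 26.8, 28.05, 26.6 and 22.8 FPKM in GFP libraries. Both the highest library and the lowest were HIL6 libraries, of batch 1 and batch 2 in that order. Srebf2, the source of SREBP-2, was at 40.03, 42.02, 45.8, 40.99 and 35.4 FPKM in HIL6 libraries, against 46.2, 40.6, 40.5 and 37.3 FPKM in GFP libraries. The groups interleaved over the whole range. Log2 fold changes were -0.055 ± 0.080 for Srebf1, 0.015 ± 0.067 for Srebf2 and 0.040 ± 0.048 for Scap (SE, unadjusted p = 0.503, 0.825 and 0.424), and those of Srebf1 and Srebf2 changed sign when single libraries were left out.

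Among the uptake genes, Apoe was at 1467, 1363, 1627, 1189 and 1302 FPKM in HIL6 libraries, against 1396, 1383, 1494 and 1164 FPKM in GFP libraries. The 3 batch 2 libraries were the lowest, and HIL6 and GFP libraries interleaved within batch 1. The log2 fold change was 0.070 ± 0.063 (SE, unadjusted p = 0.299), with 0.058 in batch 1 alone and 0.096 between the batch 2 libraries. It was 0.11 without HIL6 library 2 and 0.028 without HIL6 library 3. Lrp1, a large endocytic receptor for APOE particles, was at 33.3, 30.9, 38.8, 34.9 and 39.6 FPKM in HIL6 libraries, against 43.2, 28.0, 33.3 and 32.4 FPKM in GFP libraries. Both the highest and the lowest of the 9 libraries were GFP libraries, numbers 1 and 2, and the log2 fold change was 0.057 ± 0.12 (SE, unadjusted p = 0.648).

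The exporters did not separate the groups. Abca1, which loads cholesterol onto lipid-poor apolipoproteins, was at 2.94, 2.01, 3.34, 3.19 and 3.83 FPKM in HIL6 libraries, against 2.83, 1.75, 3.53 and 3.93 FPKM in GFP libraries. Abcg1, which passes cholesterol to formed particles, was at 10.8, 9.74, 11.9, 11.9 and 11.2 FPKM in HIL6 libraries, against 9.998, 9.80, 12.5 and 11.3 FPKM in GFP libraries. HIL6 library 2 and GFP library 2 were lowest for both exporters, and the ranges of the groups overlapped. Log2 fold changes were -0.014 ± 0.18 for Abca1 and 0.014 ± 0.088 for Abcg1 (SE, unadjusted p = 0.941 and 0.873), and both changed sign when single libraries were left out.

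Nr1h3, which encodes liver X receptor alpha (chr2:91184061-91202834, minus strand), stood farthest above 0. It was at 4.50, 2.86, 3.72, 3.24 and 3.20 FPKM in HIL6 libraries, against 2.88, 2.71, 2.75 and 2.97 FPKM in GFP libraries. HIL6 library 2 lay inside the GFP range, and the other 4 lay above it. The log2 fold change was 0.26 ± 0.12 (SE, unadjusted p = 0.0519), with 0.33 in batch 1 alone and 0.10 between the batch 2 libraries. It was 0.16 without HIL6 library 1, the highest of the 9, and 0.15 without both libraries low in Tph2. Nr1h2, which encodes liver X receptor beta, spanned 29.8 to 44.7 FPKM in HIL6 and 28.6 to 44.5 FPKM in GFP libraries, with a log2 fold change of 0.036 ± 0.059 (SE).

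Cyp46a1, the neuronal cholesterol 24-hydroxylase, was at 22.8, 24.9, 22.6, 20.3 and 21.3 FPKM in HIL6 libraries, against 25.9, 25.2, 22.5 and 22.0 FPKM in GFP libraries. The groups overlapped, with the batch 2 libraries lowest, and the log2 fold change was -0.069 ± 0.059 (SE, unadjusted p = 0.267). It was -0.044 without GFP library 1, -0.11 without GFP library 3 and -0.030 without both libraries highest in pituitary transcripts. Soat1, which esterifies cholesterol for storage, and Stard4, which moves it between membranes, had log2 fold changes of 0.048 ± 0.12 and -0.058 ± 0.063 (SE, unadjusted p = 0.688 and 0.381).

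**Figure D3:**
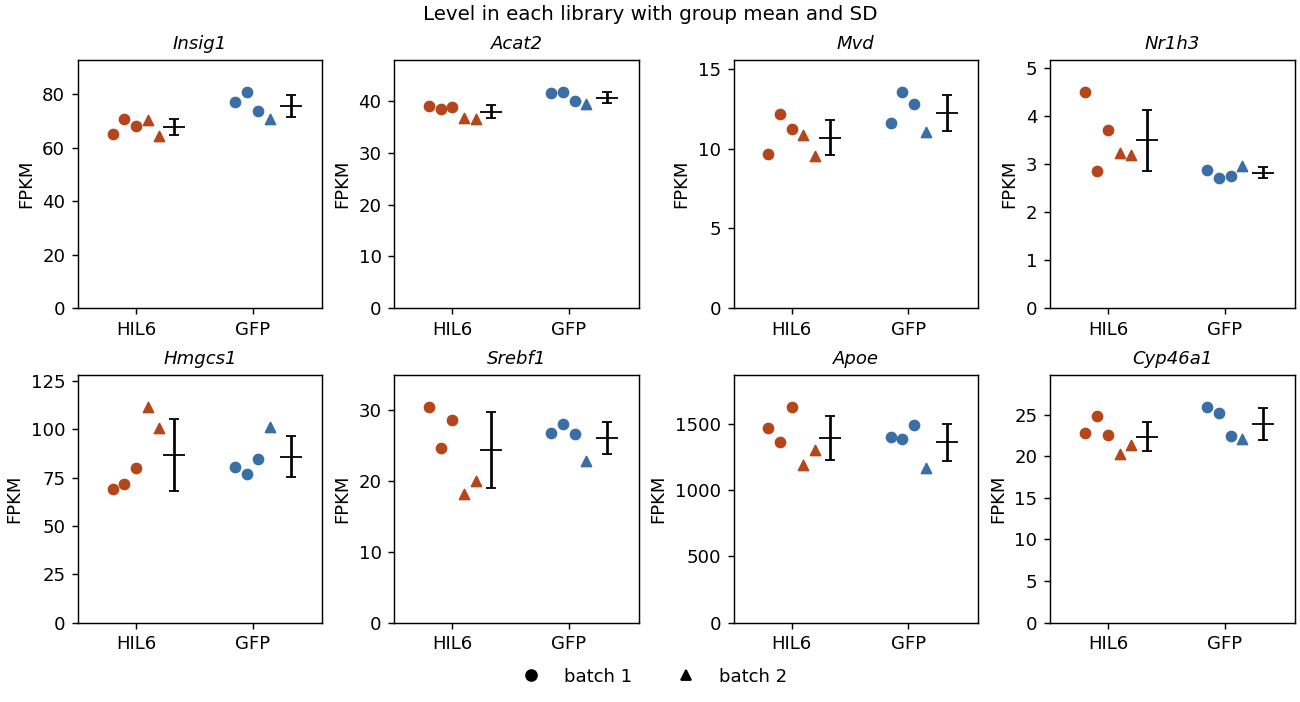
Level of 8 cholesterol genes (FPKM) in each HIL6 library (left) and GFP library (right), with circles for batch 1, triangles for batch 2 and bars for the group mean and SD. The HIL6 points of Insig1 (64.5 to 70.7 FPKM) and Acat2 (36.5 to 39.1 FPKM) lie below all GFP points, while Hmgcs1, Srebf1 and Apoe split by batch.

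Summed over the 18 synthesis genes, the level was 548, 601, 598, 652 and 628 FPKM in HIL6 libraries 1 to 5, against 627, 629, 608 and 635 FPKM in GFP libraries 1 to 4. HIL6 library 1 was the lowest of all and HIL6 library 4 the highest. Within batch 1 the sums of the 3 HIL6 libraries (548 to 601 FPKM) lay below those of the 3 GFP libraries (608 to 629 FPKM), while in batch 2 the GFP library (635 FPKM) lay between both HIL6 libraries. HIL6 library 1 was the lowest of the 6 batch 1 libraries for 11 of the 18 genes, and GFP library 2 was the highest for 9 of them. These are the libraries low in Tph2. The plot of synthesis genes by library shows the early and the late part of the pathway on the same side of 0 in HIL6 library 1, with mean deviations of -0.16 up to squalene and -0.070 from squalene on.

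**Figure D4:**
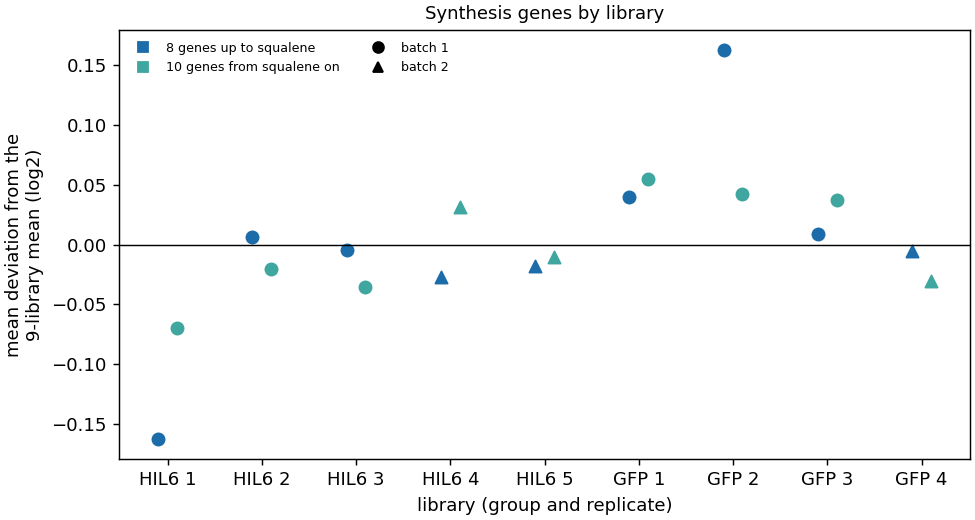
Mean deviation of the synthesis genes from their own mean over 9 libraries (log2), for the 8 genes up to squalene and the 10 genes from squalene on, by library, HIL6 before GFP; circles are batch 1 and triangles batch 2. HIL6 library 1 (-0.16 and -0.070) and GFP library 2 (0.16 and 0.043) are the farthest below and above 0 among the genes up to squalene.

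Some cell-type markers differed in level between the groups, and in bulk RNA fewer cells of a type and less RNA per cell cannot be told apart. The summed level of 8 microglia markers was 124 to 153 FPKM in HIL6 and 99.4 to 117 FPKM in GFP libraries, and that of 8 astrocyte markers 755 to 1164 FPKM in HIL6 and 484 to 720 FPKM in GFP libraries, so neither overlapped. All 8 microglia markers had log2 fold changes above 0 (median 0.43), and 4 of 8 astrocyte markers did (median 0.011), the highest being Gfap at 1.86. The 10 oligodendrocyte markers summed to 10551 to 14113 FPKM in HIL6 and 10088 to 11976 FPKM in GFP libraries, with all 10 log2 fold changes above 0 (median 0.12), the opposite side from the synthesis genes. The 7 neuron markers in the table summed to 2472 to 3097 FPKM in HIL6 and 2678 to 3226 FPKM in GFP libraries, with 6 of 7 below 0 (median -0.12). The 5 markers of serotonergic neurons of the raphe summed to 44.5 to 137 FPKM in HIL6 and 75.1 to 159 FPKM in GFP libraries, with all 5 below 0 (median -0.33). The 5 motor neuron markers summed to 11.6 to 59.3 FPKM in HIL6 and 12.6 to 62.2 FPKM in GFP libraries, with all 4 that were tested below 0 (median -0.23, and -1.65 in batch 1 alone). The sums of both lists overlapped between the groups. None of the listed markers of these 6 cell types was at 0 throughout, none passed the test, and their part in the values of Nr1h3, Cyp46a1 or the synthesis genes was not tested.

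A second list of 36 cholesterol genes around these steps gave the same count of calls. Of the 35 with a value, 31 passed the filter, 0 had an adjusted p under 0.05, 12 had log2 fold changes below 0 and 19 above, and the median was 0.014. Of the 4 with the smallest p, Gramd1b, which carries cholesterol from the plasma membrane to the endoplasmic reticulum, averaged 21.7 ± 1.87 FPKM in HIL6 and 25.7 ± 1.44 FPKM in GFP libraries (SD, n = 5 and 4), with a log2 fold change of -0.24 (unadjusted p = 0.00890). Clu, a lipid-binding secreted protein of astrocytes, averaged 412 ± 25.3 FPKM in HIL6 and 382 ± 24.8 FPKM in GFP libraries, with a log2 fold change of 0.13 (unadjusted p = 0.0285). Mbtps2, the protease that makes the second cut of SREBP, averaged 8.78 ± 1.12 FPKM in HIL6 and 7.42 ± 0.707 FPKM in GFP libraries, with a log2 fold change of 0.19 (unadjusted p = 0.0433). Apod, a lipid carrier, averaged 642 ± 152 FPKM in HIL6 and 501 ± 71.8 FPKM in GFP libraries, with a log2 fold change of 0.34 (unadjusted p = 0.0638). All 4 had a limma adjusted p of 0.999, and the HIL6 and GFP libraries of each overlapped.

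More genes differed between batches than between HIL6 and GFP. With treatment as a term, limma called 6 of 32 members (18.8%) higher in batch 2, against 11.4% of all genes, and 6 (18.8%) lower, against 11.1% of all genes. All batch 2 libraries lay above all batch 1 libraries for 6 members (18.8%), against 14.3% of all genes, and below them for 7 (21.9%), against 13.4%. The members' shares were above those of all genes by a few genes in each direction, and genes called higher and lower stood side by side within one pathway. Called higher were Hmgcs1, Cyp51, Msmo1, Sc5d, Insig2 and Soat1. Called lower were Mvk, Dhcr7, Srebf1, Scap, Apoe and Nr1h2.

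Hmgcs1 averaged 104 ± 6.07 FPKM in batch 2 and 77.1 ± 5.91 FPKM in batch 1 (SD, n = 3 and 6), a log2 difference of 0.45 ± 0.069 (SE, limma adjusted p = 0.00542). Mvk, 2 steps on from Hmgcs1 in the pathway, went the other way, at 15.7 ± 0.600 FPKM in batch 2 and 19.1 ± 1.41 FPKM in batch 1, a log2 difference of -0.27 ± 0.072 (limma adjusted p = 0.0256). The INSIG paralogs parted too. Insig2 averaged 39.2 ± 3.65 FPKM in batch 2 and 27.4 ± 2.08 FPKM in batch 1, a log2 difference of 0.51 ± 0.080 (limma adjusted p = 0.0055), while Insig1 averaged 68.6 ± 3.58 FPKM in batch 2 and 72.6 ± 5.76 FPKM in batch 1, a log2 difference of -0.054 ± 0.054 (limma adjusted p = 0.5). Soat1 averaged 11.6 ± 0.269 FPKM in batch 2 and 8.07 ± 1.28 FPKM in batch 1, a log2 difference of 0.50 ± 0.12 (limma adjusted p = 0.0204). Nr1h2, at 29.9 ± 1.30 FPKM in batch 2 and 41.3 ± 2.55 FPKM in batch 1, had a log2 difference of -0.47 ± 0.062 (limma adjusted p = 0.00489), and Srebf1, at 20.3 ± 2.36 FPKM in batch 2 and 27.5 ± 1.98 FPKM in batch 1, one of -0.42 ± 0.084 (limma adjusted p = 0.0101). The other 6 called members had log2 differences of 0.23 (Cyp51), 0.23 (Msmo1), 0.20 (Sc5d), -0.18 (Scap), -0.27 (Apoe) and -0.27 (Dhcr7), with adjusted p from 0.0198 to 0.0393.

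Depth and total FPKM moved with the batch. Batch 2 libraries held 38.83 to 46.38 scaled fragments and batch 1 libraries 31.94 to 38.67, in units of 1e6, and the FPKM of all genes summed to 628191 to 635729 in batch 2 and 567971 to 610938 in batch 1. With each library scaled to the same total (TPM), the median gene shifted by -0.11 on the log2 scale, and 2 members were called higher and 11 lower, with 516 genes higher and 3153 lower over the whole table, against 1585 and 1553 in FPKM as deposited; no called member changed direction. Leaving out 1 library also moved the counts of members called. Without GFP library 4, where batch 2 holds HIL6 libraries alone, 0 were higher and 0 lower, with 16 and 13 genes over the whole table. Without HIL6 library 4 the counts were 2 higher and 1 lower, with 447 and 511 genes over the whole table. Without HIL6 library 5 they were 3 and 3, with 840 and 856 genes, and without HIL6 library 1 they were 5 and 3, with 1195 and 1172 genes. Without both libraries highest in pituitary transcripts they were 0 and 0, with 31 and 37 genes, and without both libraries low in Tph2 they were 6 and 5, with 1392 and 1312 genes. The counts over the whole table thus fell in the same sets. No source used here says what the batch stands for in the laboratory.

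**Figure D5:**
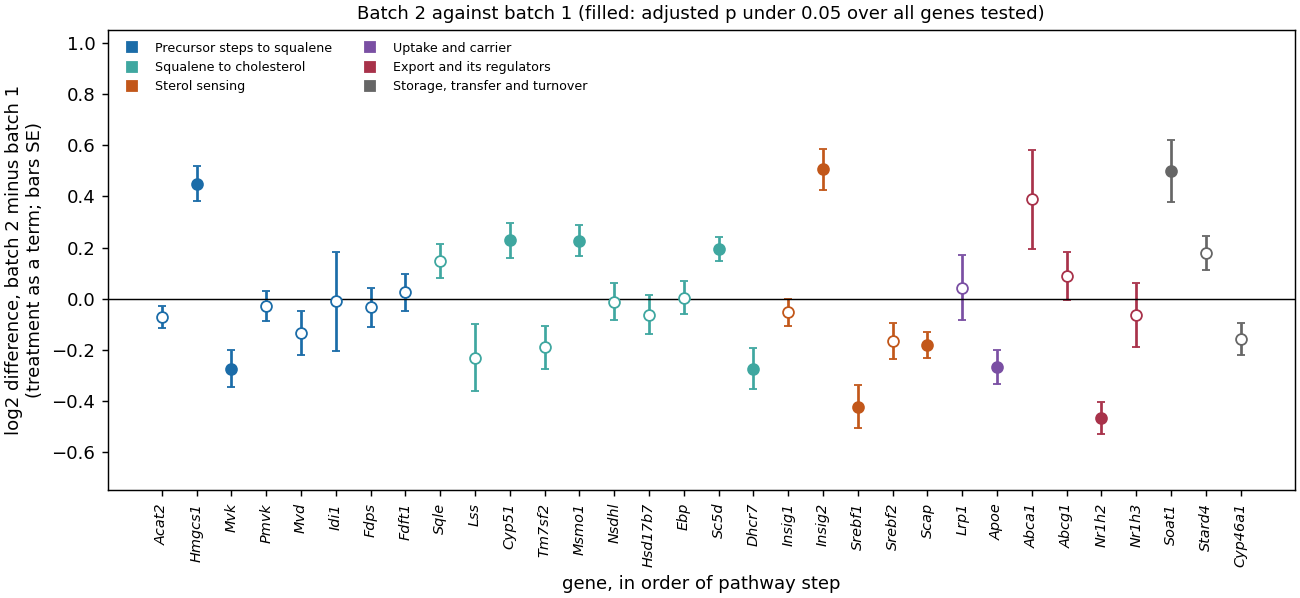
Log2 difference of each cholesterol gene, batch 2 minus batch 1, on the log2(FPKM + 0.5) scale with treatment as a term; bars are standard errors, and filled points passed an adjusted p of 0.05 over all genes tested. Insig2 (0.51), Soat1 (0.50) and Hmgcs1 (0.45) lie farthest above 0 among the called genes, and Nr1h2 (-0.47) and Srebf1 (-0.42) farthest below.

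Whether the difference between HIL6 and GFP was itself different between batches was estimated by an interaction term. Batch 2 holds 1 GFP library, so the term is given as an effect size without a call. Over the 32 members it ran from -0.29 ± 0.16 for Srebf1 to 0.33 ± 0.14 for Dhcr7 on the log2 scale (SE). The interaction was above 0 for 15 of the 18 synthesis genes and for 6673 of all 13958 genes. For these 15 synthesis genes the difference HIL6 minus GFP was thus higher in batch 2 than in batch 1. All of these batch 2 differences share GFP library 4, whose own deviation enters each one.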

How the data were processed

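Poly(A) RNA of 9 libraries was prepared with a stranded kit, per the labels' protocols. The authors deposited FPKM, with 1 column for each library; kallisto, DESeq2 and the build mm10 are named in the submitters' processing notes, with no version or scaling. kallisto splits fragments between similar transcripts by likelihood, so a gene with a close copy is uncertain. The members and lists were chosen with earlier results of these data known. Genes averaging 0.5 FPKM or more were transformed to log2(FPKM + 0.5), which understates changes of low genes, and fitted with limma 3.58.1 (R 4.3.3) with a mean-variance trend, treatment and batch as terms and 6 residual degrees of freedom. Tests were two-sided, with Benjamini-Hochberg adjustment over 13958 genes and a threshold of 0.05, and the fit was tested on simulated data. FPKM are not counts, so no count test was run. Depth came from low values of 2279 genes with 1 transcript, 414 to 483 values in each library. A step and a length offset were searched for that made most of these values whole multiples of the step. Of the depths that did about as well, the shallowest was taken. With that choice 96.8% to 98.0% in each library were whole within 0.05, a share that the search itself raised and that does not test the depth. Gene positions are from GENCODE M21, which matched 16429 of 17187 symbols. Values in every library are given for the 12 members with the smallest p and for 11 members set by name, some of them in both sets; of the other cholesterol genes the 4 with the smallest p are named. Alternatives were pseudocounts of 0.1 and 1 FPKM, no filter or one at 1 FPKM, no batch term, batch 1 alone, the replicate number as a block, library weights, 2 scalings, robust moderation and leaving out each library. Leaving out both libraries low in Tph2, or both highest in pituitary transcripts, was chosen after seeing the data. No pair of libraries held identical values.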

Additional observations from a re-analysis of the deposited data

How the results depend on the processing

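No member was called between HIL6 and GFP under any of 22 alternatives. Over the whole table the count of called genes was 0 except with library weights (9) and without HIL6 library 2 (leave-one-out 0 to 2). The median of the synthesis genes stayed below 0 throughout, from -0.109 (batch 1 alone) to -0.034 (library weights, where 12 of 18 genes were below 0). In every setting 18 of 32 members kept their sign, Insig1 and Acat2 among them, and Scap only at 1.1e-05 with library weights. Not all settings are separate checks of sign. The filters and robust moderation cannot change a fold change. Batch 1 alone gives the same fold changes as leaving out GFP library 4, and the replicate block the same as leaving out HIL6 library 5. The members higher in batch 2 numbered 2 under TPM scaling and 0 without the pair highest in pituitary transcripts (leave-one-out 0 to 6), and those lower 10 with library weights, 11 under TPM scaling and 0 without that pair (leave-one-out 0 to 7); over the whole table library weights called 2710 genes higher and 2626 lower, against 1585 and 1553 as reported. None of the 12 members called between batches changed direction. Between HIL6 and GFP, the log2 fold changes of 14 members changed sign in some setting. In the main fit Idi1 stood at -0.18, the lowest of the 32, and the rest of these from -0.055 (Srebf1) to 0.057 (Lrp1). With library weights the changed values were 0.0029 (Mvk), 0.024 (Fdps), 0.0062 (Sc5d) and -0.010 (Soat1). With no batch term they were 0.013 (Sc5d), -0.0098 (Srebf2), 0.044 (Abca1) and -0.034 (Nr1h2). In batch 1 alone they were -0.035 (Tm7sf2), 0.033 (Srebf1), -0.0044 (Lrp1) and 0.045 (Abca1). Without the pair low in Tph2 they were 0.061 (Idi1), 0.064 (Fdps), 0.027 (Sc5d), -0.021 (Abcg1) and -0.022 (Soat1), and without the pair highest in pituitary transcripts -0.021 (Tm7sf2), -0.029 (Insig2), 0.056 (Abca1) and -0.032 (Abcg1). Leaving out 1 library at a time gave -0.059 to 0.027 for Mvk, -0.077 to 0.043 for Fdps, -0.035 to 0.086 for Tm7sf2, -0.070 to 0.0032 for Msmo1 and -0.030 to 0.0081 for Sc5d. It gave -0.0094 to 0.080 for Insig2, -0.11 to 0.033 for Srebf1, -0.018 to 0.056 for Srebf2, -0.025 to 0.17 for Lrp1, -0.17 to 0.096 for Abca1, -0.028 to 0.086 for Abcg1 and -0.043 to 0.15 for Soat1. The cause of these changes was not tested. The labels do not say whether replicate numbers pair libraries. Same-numbered libraries of batch 1 deviated from their group means with correlations of 0.019, -0.11 and 0.27, and differently numbered ones with -0.30 to 0.28. So few correlations cannot decide on a pairing. With the number as a block, 0 genes were called. The medians were then -0.086 for synthesis, 0.040 for sensing and 0.023 for uptake, export and turnover. Depth limits the low genes most, since the mean level of Nr1h3 corresponds to about 203 fragments at the depth of the shallowest library.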
